A study of Mus musculus with 30 samples.

Results

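The regions described here are the places on chromosomes 1 to 19 where the chromatin remodeller Snf2h was called by ChIP-seq in wild-type CH12 cells, where no region shared even 1 base with a Snf2h region of the mutant CH12 line, and where no base was shared with any of 6 lists of cohesin regions from NIH3T3 cells. The 8 lists used held 624912 regions on chromosomes 1 to 19, X and Y. The regions described here numbered 3907 of the 16793 wild-type Snf2h regions on chromosomes 1 to 19. They were chosen by the positions called in these lists, so their absence from the mutant and cohesin lists is a definition and not a finding, and their values in the wild-type list are given as a description.

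The study mapped chromatin in mouse cell lines in 30 samples, of which 8 peak lists were used and 22 samples were not analysed here. CH12 is a mouse B lymphoma line. Its wild-type cells carried no vector and were untreated, and its mutant cells were edited with Cas9 so that both copies of the CTCF gene lacked zinc fingers 9 to 11. Snf2h was immunoprecipitated with the same antibody in both, after fixation with formaldehyde. NIH3T3 is an immortalized mouse embryonic fibroblast line, and its SMC1, RAD21 and SMC3 lists came from cells with a control plasmid for beta-galactosidase (empty vector) and from cells with stable expression of BORIS, which were 1 clone, number 2. Cohesin was thus mapped in fibroblasts and Snf2h in B cells, so a region without cohesin is one where cohesin was not called in NIH3T3. Each group had 1 list, no difference between lines has a replicate check, and no test was made. The lists hold regions with their peak values and no gene expression, so the labelled cell types could not be checked against marker genes.

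Snf2h is the ATPase of ISWI remodellers, which slide nucleosomes and space them evenly. In mammalian cells it is known for the ordered nucleosomes beside CTCF sites and for helping CTCF to stay bound there. CTCF reads DNA through an array of zinc fingers and halts the cohesin ring, which is why CTCF sites and cohesin regions often coincide. Snf2h also acts at promoters and enhancers, where cohesin need not be found.

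Of the wild-type regions on chromosomes 1 to 19, 6446 (38.4%) had no mutant region, 10886 (64.8%) had no cohesin region and 3907 (23.3%) had neither. Among the 6446 wild-type-only regions, 60.6% (95% interval 59.4 to 61.8) lay outside cohesin, whereas 67.4% (66.5 to 68.4) of the 10347 wild-type regions shared with the mutant did. The difference was −6.84 percentage points (−8.34 to −5.33). It was −14.2 points among wild-type regions whose −log10 q was 10 or higher, with a wide interval (−23.0 to −5.37) that holds −6.84. With that limit in each list it was −7.03 points (−11.2 to −2.84). Where cohesin within 1 kb counted as cohesin it was −3.92 points (−5.48 to −2.35). In the mutant list, 56.3% of regions had no wild-type region and 65.3% had no cohesin region. There the share outside cohesin was 64.7% (63.9 to 65.5) in the 13206 mutant-only regions and 66.0% (65.1 to 67.0) in the shared ones. Of these 4 classes, the wild-type-only regions had the lowest share outside cohesin. The intervals cover counting error only.

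The wild-type-only regions that did meet cohesin mostly met it in every list. Of all 6446, 1809 (28.1%, 27.0 to 29.2) overlapped a region in all 6 cohesin lists and only 174 (2.70%) overlapped exactly 1. In shared wild-type regions 20.2% (19.4 to 21.0) were in all 6 lists, and in mutant-only regions 20.7% (20.0 to 21.4) were. A region was thus mostly either outside every cohesin list or inside all of them, and each count from 1 to 5 lists held 3.83% or less of these 3 classes.

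The 3907 regions were narrow and weak within their list, as were the 2539 wild-type-only regions at cohesin. Their median width was 206 bp, with the middle 80% between 163 and 320 bp. At 163 bp, the narrowest width in the list, there were 523 of them (13.4%), against 7.93% of all wild-type regions. The median fold at the summit, the point of highest read density, was 3.34, with 2.76 and 4.20 as the 10th and 90th percentiles. Of the 3907, 2369 (60.6%) had a fold from 3 to under 4, 110 (2.82%) reached 5 and 14 (0.358%) were under 2. Shared regions without cohesin were wider, with a median of 258 bp, and had a median fold of 3.86. Mutant-only regions without cohesin also ranked low in their own list, at a median percentile of 38.1 by −log10 p. Wild-type-only regions at cohesin had a median width of 210 bp, a median fold of 3.41, a median pileup of 21 fragments and a median percentile of 32.6 in the list by −log10 p, so these values did not set the regions without cohesin apart from them.

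Behind these folds stood few fragments. The deposited fold and p-value together give the number of fragments over the summit (the pileup) and the local background, and a whole-number pileup came out for every region. The median pileup was 22 fragments over a background of 5.72, and the lowest pileup was 13. The shared regions without cohesin had a median pileup of 27 over a background of 6.26. The 25th and 75th percentiles of the pileup were 19 and 25 fragments in the 3907 regions and 23 and 36 in the shared ones, so the classes overlapped and the shared one reached higher.

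**Figure D1:**
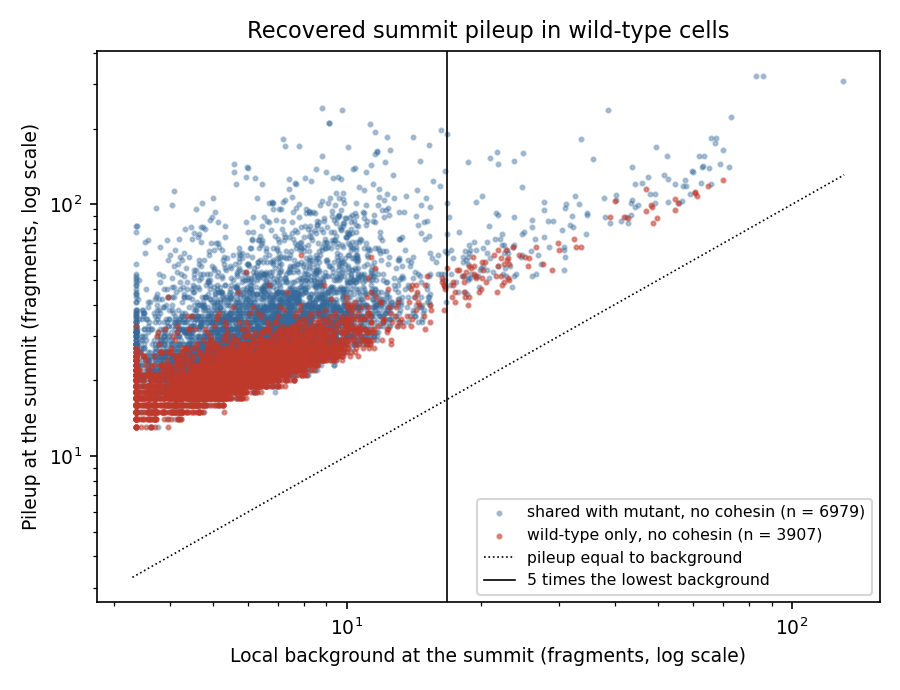
Pileup at the summit (fragments, log scale) against local background (fragments, log scale) for wild-type-only and for shared wild-type Snf2h regions without cohesin, 1 point per region. Wild-type-only points lie in the lower part of the cloud, with a median of 22 fragments against 27, and 76 of them lie at or right of the line at 5 times the lowest background.

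Placed by rank of −log10 p in the wild-type list, the median of the 3907 regions was at percentile 31.7. With the list divided by this rank into 10 bins, from 1 (weakest) to 10 (strongest), they made up 41.2% (38.9 to 43.6) of bin 1, 26.6% of bin 5 and 1.08% (0.644 to 1.71) of bin 10, where there were 18 of 1660. With a −log10 q of at least 10 there were 78 of them (2.00%), against 27.7% of shared regions without cohesin. These 78 had a median fold of 5.62 and a median percentile of 86.7. With that limit in each list, the mutant and cohesin lists included, 386 regions met the rule, with medians of 5.18 and 86.9. Typical regions by this rank were chr4:25200499-25200747 and chr8:98158170-98158397, each with 21 fragments and a fold of 3.41, and chr10:7113644-7113820 with 18 fragments and a fold of 3.71. All 3 lay within 1 kb of a mutant region, at 0.973, 0.617 and 0.174 kb. In that distance they were not typical, as only 642 of the 3907 (16.4%) lay so close.

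**Figure D2:**
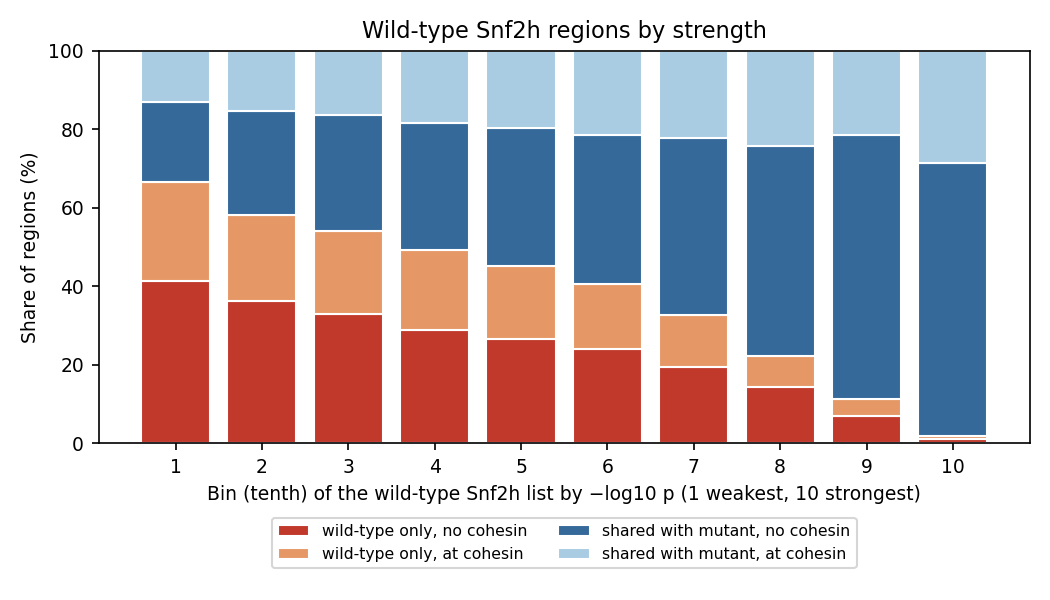
Share of wild-type Snf2h regions (%) in 4 classes, in 10 bins of the list by −log10 p, from weakest (1) to strongest (10). The wild-type-only regions without cohesin make up 41.2% of bin 1 and 1.08% of bin 10.

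The share outside cohesin was higher in stronger regions of the shared class, and showed no such order in the wild-type-only class. In bin 1, 62.0% (59.1 to 64.8) of wild-type-only and 61.4% (57.2 to 65.4) of shared regions lay outside cohesin, a difference of 0.63 points. In shared regions the share was 67.1% (64.3 to 69.8) in bin 7, 75.9% (73.6 to 78.1) in bin 9 and 70.7% in bin 10. In wild-type-only regions it stayed between 56.3% and 64.6% over the 10 bins. The difference was −0.98 points in bin 2 and −3.48 points or lower in every bin from 3 to 10. It was −14.2 points in bin 9, where 183 wild-type-only regions were left, and −14.5 points in bin 10, where 32 were left and their interval ran from 37.7 to 73.6%. The intervals of both classes were apart in bin 7 (54.9 to 63.3 against 64.3 to 69.8) and bin 9 (54.3 to 68.8 against 73.6 to 78.1), and overlapped in the other bins.

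The mutant library had a lower background than the wild-type one. The lowest background, divided by the narrowest region as a stand-in for fragment length, was 20.6 fragments per kb in wild type and 13.8 in the mutant, a ratio of 0.670. If each wild-type summit kept its fold at that depth, 171 of the 3907 regions (4.38%, 3.76 to 5.07) would have a −log10 p under 3.74, the lowest in the mutant list. The same count was 72 (1.84%) with the backgrounds compared directly, a ratio of 0.768. For wild-type-only regions at cohesin the shares were close to these, at 3.51% and 1.30%, and for shared regions without cohesin they were 1.15% and 0.358%. At the scaled background, a summit with up to 11 fragments (median) would stay under that limit, which is a fold of 2.58, or 0.759 times the fold in wild type (medians). A region on the list in wild type only can thus still carry a lower Snf2h signal in the mutant. These shares do not size the part of depth in the class, which was not tested: regions that passed the call in wild type alone have folds selected to be high there, and the scaling keeps those folds and adds no sampling noise.

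The 10 regions with the highest −log10 p were the clearest of the class, with pileups of 33 to 63 fragments and folds of 5.11 to 8.87. They lay at percentiles 91.8 to 96.6 of the wild-type list. The first was chr12:113910060-113910362, with 63 fragments over a background of 7.91. A mutant region lay 3.25 kb away and a cohesin region 0.658 kb away. The second was chr17:60425400-60425673, with 54 fragments over 5.95 and the nearest mutant region 2661 kb away. The third, chr2:49496930-49497201, had 43 fragments over 3.96 and the highest fold of the class, 8.87. Its nearest mutant region was 85.5 kb away.

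The next regions of this ranking were on chromosomes 14 and 2. At chr14:102055469-102055779 there were 62 fragments, nearly as many as at the first region, but over a background of 11.3, so that the fold was 5.11. At chr2:132107359-132107724 the pileup was 45 and the fold 6.86, with cohesin 0.43 kb away. At chr14:45867038-45867267 the pileup was 48 and the fold 6.36. The remaining 4 had 33 to 45 fragments. They were chr7:66951715-66951994 (fold 7.80), chr15:79303776-79304012 (fold 6.87), chr4:135819689-135819973 (fold 5.52) and chr9:72112684-72112934 (fold 6.75). The region on chromosome 15 ended 11 bp from a cohesin region. The one on chromosome 7 was 201 kb from any cohesin region but 0.385 kb from a mutant region.

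The widest of the class were chr16:87439659-87440445 (787 bp, fold 2.75), chr16:31493644-31494354 (711 bp, fold 3.11) and chr16:97425370-97426069 (700 bp, fold 3.49), with pileups of 29, 19 and 31 fragments and percentiles of 24.9, 12.5 and 64.0 in the list by −log10 p. The third was thus above the 75th percentile of the class (52.8), and the others were below its median. All 3 lay on chromosome 16, and 40 of the 3907 regions (1.02%) were wider than 500 bp.

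Regions at the edge of the rule ranged from weak ones to ones above the median of the class. The smallest gap to a mutant region was 1 bp, at chr10:81640763-81640948 (fold 2.79, 15 fragments) and chr17:73444451-73444686 (fold 3.77, 24 fragments). Just outside, chr13:21507218-21507389 (fold 3.97, 20 fragments) was left out for 1 base shared with a mutant region. A cohesin region touched, without a shared base, chr14:33959331-33959493 (fold 2.67, 22 fragments) and chr3:89959270-89959442 (fold 3.33, 24 fragments). One base shared with a region of 1 cohesin list left out chr6:86604634-86604849 (fold 3.85, 21 fragments) and chr9:35275289-35275515 (fold 3.31, 18 fragments). Of the 4 inside the rule, those on chromosomes 10 and 14 were at percentiles 0.315 and 4.78 of the list, under the 10th percentile of the class (5.48), and those on chromosomes 17 and 3 were at 55.1 and 38.9. The 3 just outside were at percentiles 16.5 to 48.2.

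Most of the regions were some distance from Snf2h in the mutant. The median gap to the nearest mutant region was 15008 bp, and 158 (4.04%) were within 100 bp, 642 (16.4%, 15.3 to 17.6) within 1 kb and 1617 (41.4%) within 10 kb. For the 78 with a −log10 q of 10 or higher the median gap to the same mutant list was 16613.5 bp. It was 70956.5 bp for the 386 regions that met the rule with that limit in each list, another set measured to a mutant list without its weaker regions. Wild-type-only regions at cohesin, measured to the same mutant list, lay within 1 kb in 13.5% (12.2 to 14.9) of cases and within 10 kb in 41.3%. Mutant-only regions without cohesin lay within 1 kb of a wild-type region in 9.61% (8.99 to 10.3) of cases, in a shorter list of neighbours. Of the 642 close regions, 246 (38.3%) stood beside a mutant region that itself overlapped another wild-type region, which places them at the flank of a Snf2h site present in both lines. The other close regions stood beside a mutant region that overlapped no wild-type region. The close regions had a median fold of 3.13 and a background of 6.59, against 3.38 and 5.54 for those 1 kb or more away.

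Toward cohesin the distances were shorter, in lists that hold more regions. The median gap was 4399 bp, with 824 regions (21.1%, 19.8 to 22.4) within 1 kb and 2783 (71.2%, 69.8 to 72.6) within 10 kb. The median was 7784 bp where a cohesin call needed all 3 antibodies of one line, 6802 bp with only regions of a −log10 q from 10 upward in each list, and 6691 bp where regions with cohesin within 1 kb were left out. For shared regions without cohesin the median gap was 3553 bp and 76.4% (75.4 to 77.4) were within 10 kb, and for mutant-only regions without cohesin these values were 3694 bp and 76.4% (75.4 to 77.3). The wild-type-only regions thus lay somewhat farther from cohesin. Within 100 kb of cohesin were 98.5% of shared and 98.9% of mutant-only regions without cohesin, against 96.8% of the wild-type-only ones. The 125 wild-type-only regions (3.20%) at 100 kb or more had a median fold of 3.77 and a median background of 4.22. The farthest was chr16:73683021-73683232, 527 kb from cohesin, with 17 fragments and a fold of 4.08. The kind of cohesin region nearest did not set them apart, as it was one called in all 6 lists for 36.2% of the wild-type-only, of the shared and of the mutant-only regions without cohesin.

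**Figure D3:**
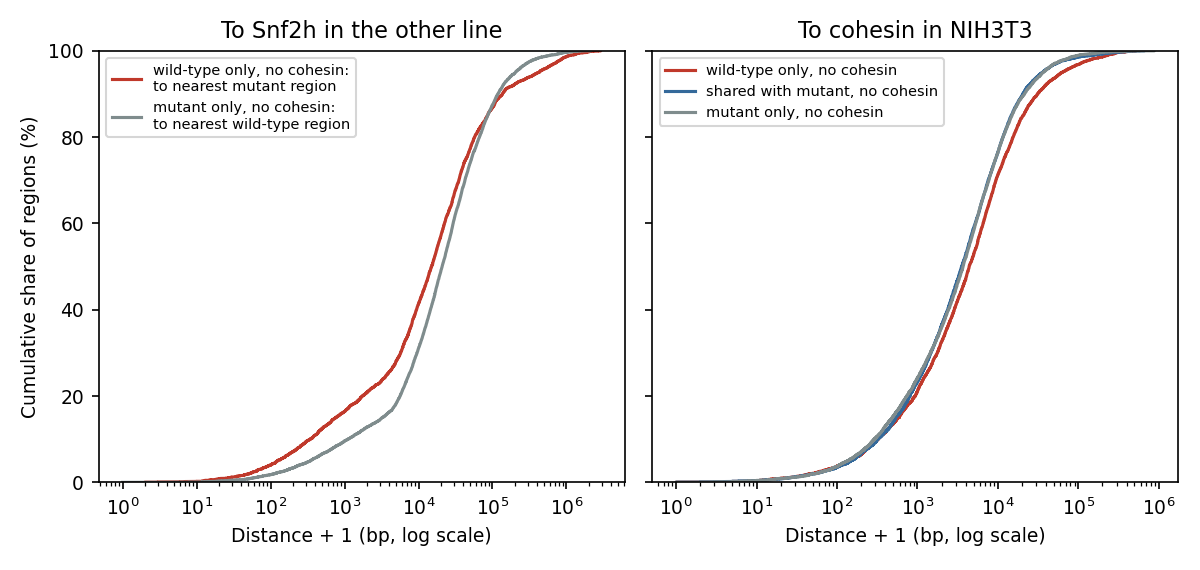
Cumulative share of regions (%) against distance (bp plus 1, log scale) to the nearest Snf2h region of the other line, left, and to the nearest NIH3T3 cohesin region, right. The wild-type-only curve lies above the mutant-only curve on the left at short distances (16.4% against 9.61% within 1 kb) and below the other curves on the right at 10 kb (71.2% against 76.4%), while within 100 bp of cohesin the curves lie together (3.79% against 3.52% for shared and 3.67% for mutant-only regions).

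Few of the regions lay close to another of the class. Joining those at most 10 kb apart left 3484 (89.2%) with no other of the class in reach, and 167 pairs. The median gap to the nearest wild-type region shared with the mutant was 40183 bp, and 818 (20.9%) had one within 10 kb. Shared regions without cohesin were 29164 bp from the next shared region at the median, and 26.4% had one within 10 kb. For wild-type-only regions at cohesin these values were 37772 bp and 19.6%, close to those of the class.

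Only 9 groups held 4 or more regions, 56 in all, and 8 of these 9 had a raised local background. The largest was chr1:87469793-87522141, where 11 regions lay in 52.3 kb with pileups of 53 to 125 fragments, backgrounds of 19.3 to 70.0 and folds of only 1.71 to 2.65. In the same stretch there were 11 more wild-type regions shared with the mutant, with pileups up to 222, and 10 mutant regions with pileups up to 245. The highest background of the class, 70.0 fragments, was at chr1:87502067-87502360, whose 125 fragments were a fold of 1.78 and whose nearest mutant region was 53 bp away. Snf2h was therefore called in both lines in this stretch, although 11 of its 22 wild-type regions shared no base with a mutant region. Chromosome 5 had 2 groups of 8, chr5:14954222-14990994 and chr5:14900633-14942500, with median backgrounds of 22.0 and 17.9. Close by on it lay a group of 5, chr5:15143039-15167900, and a group of 4, chr5:15041897-15051492, with median backgrounds of 18.3 and 17.9. Over all chromosomes, 76 of the 3907 regions (1.95%) had a background of at least 5 times the lowest in the list, a limit chosen after the values were seen, and 45 of the 76 stood in groups of 4 or more. The same share was 1.88% of all wild-type regions. The part of the raised background in these groups was not tested.

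The remaining group was of another kind. At chr7:66938908-66951994, 5 regions lay in 13.1 kb with folds of 4.65 to 7.80. Their backgrounds were 3.36 to 5.02, below the median of the class (5.72). In order of position the pileups of the 5 were 27, 31, 25, 26 and 33 fragments. Between the third and the fourth stood a shared region, chr7:66951076-66951316, with 32 fragments in wild type (fold 7.33) and 23 in the mutant (fold 6.70). This was the only mutant region in the stretch. No cohesin region lay in it, and the nearest was 201 kb off. Of the 6 wild-type regions in the stretch, 1 was thus on the mutant list.

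Some stretches of the genome held wild-type regions and no mutant region at all. In 3.78 Mb at chr17:58818879-62596537, 10 wild-type regions followed each other with no mutant region between them, and 8 of these were outside cohesin. Their folds were 2.82 to 7.91 with a median of 4.25, and the second strongest region of the class was among them with 54 fragments. The other 7 had 13 to 23 fragments. In 2.75 Mb at chr5:9100375-11851600 there were 12 in a row with no mutant region, 11 of them outside cohesin, with folds of 2.87 to 4.10 and 14 to 24 fragments. At chr10:47192159-50483790 all 12 in a row were outside cohesin, with a median fold of 3.53, and 2 mutant regions lay between them without an overlap. Cohesin was called in NIH3T3 in all 3 stretches, at 38, 31 and 59 merged regions. Over the genome, 54 of the 3907 regions (1.38%) were 1 Mb or more from a mutant region, 12 of them on chromosome 5, 10 on chromosome 10 and 7 on chromosome 17. The same distance held for 8 of the 2539 wild-type-only regions at cohesin (0.315%) and, to the wild-type list, for 30 of the 8547 mutant-only regions without cohesin (0.351%). The farthest was chr3:75548126-75548298, at 2906 kb, with 20 fragments and a fold of 2.94.

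Such stretches occurred in the mutant list too. The longest run there held 16 mutant-only regions, at chr1:30836684-34354771, with 5 wild-type regions between them, and another run of 16 at chr8:13105154-14090763 had no wild-type region in 0.986 Mb. The longest wild-type run held 17 regions, at chr14:105423212-106434753, of which 13 were outside cohesin, with 3 mutant regions between them. Runs of 12 or more were found in both lines.

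Across chromosomes 1 to 19 the class made up between 17.8% and 27.0% of the wild-type regions, around the 23.3% of all. The lowest share was on chromosome 15, with 125 of 701 regions (17.8%, 15.1 to 20.9), and the highest on chromosome 14, with 248 of 920 (27.0%, 24.1 to 29.9). Most intervals covered 23.3%, and those of chromosomes 1 (26.8%, 24.2 to 29.4), 4 (20.3%, 18.1 to 22.7), 10 (26.6%, 23.9 to 29.5), 11 (20.5%, 18.5 to 22.7), 14 and 15 did not. The mirror class, mutant-only regions without cohesin, was larger on each of these chromosomes, by a factor of 1.54 on chromosome 16 to 3.47 on chromosome 15. This factor is taken over the wild-type-only count, so its highest value on chromosome 15 partly restates the low share there. Median folds by chromosome lay between 3.11 (chromosome 14) and 3.47 (chromosome 12).

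**Figure D4:**
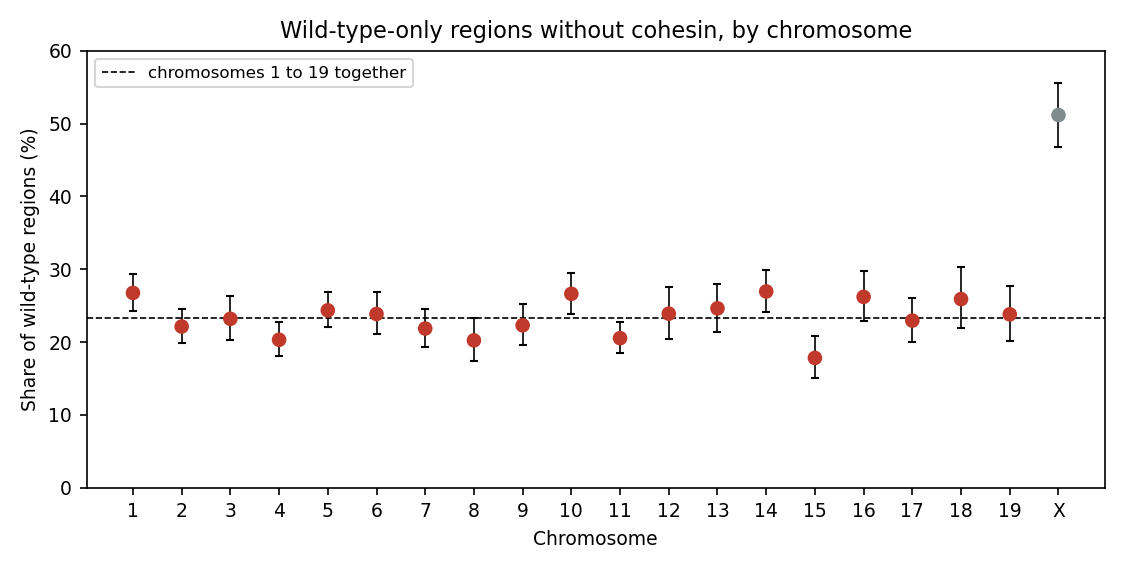
Share of wild-type Snf2h regions (%) that were wild-type only and without cohesin, per chromosome, with exact 95% binomial intervals; chromosome X, in grey, is outside the class. Chromosome 15 is lowest at 17.8%, and X is at 51.2%.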

How the data were processed

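The lists are ChIP-seq peak lists in narrowPeak form (10 columns, without a header). The submitters' processing notes name Bowtie2, Bowtie, SAMtools, MACS2 and deepTools 3.5.0 without a role, and the builds mm9 and hg19. Parameters, controls and filters are not given in the sources used here. Coordinates are printed as deposited, counted from 1. On chromosome 1 they reach 197182423, past the last GRCm38 gene end (195291439), so the GRCm38 gene table was not used, and no sequence or gene is given. The authors deposited per region a score (10 times the −log10 q, as a whole number), a fold (ratio) over local background, a −log10 p and a −log10 q, which are used only to describe and rank regions within their own list. Region names in the Snf2h lists carry a tag readable as pooled replicates, which the labels do not explain.

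With Python 3.11, pandas 2.3.3 and SciPy 1.17.1, overlaps needed 1 base. Overlapping or adjoining regions of the 6 cohesin lists became 1 merged region. Pileup and background were solved from fold, taken as pileup plus 1 over background plus 1, and the Poisson tail, within 0.001 in −log10 p. All summits under a −log10 p of 300 were solved, and by chance 0.933% of those of the class would be. Percentiles are over the 17304 wild-type regions on chromosomes 1 to 19, X and Y. Intervals of shares are exact (Clopper-Pearson) 95% ones, and those of differences join the intervals of both shares. They cover counting error only, and neighbouring regions are not independent. The regions named are the 10 highest by −log10 p, the 3 highest folds, the 3 widest, the 3 nearest the median rank, those at the edges of the rule, the largest group and the farthest from cohesin. The highest background, the farthest from the mutant, the stretches and the other groups were chosen after their values were seen. The class and lists were chosen with earlier results of these data known.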

Additional observations from a re-analysis of the deposited data

Results flagged for a closer look

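Chromosome X lies outside the rule of the class and stood apart from the other chromosomes. Of its 510 wild-type Snf2h regions, 261 (51.2%, 46.7 to 55.6) were wild-type only and without cohesin, against 17.8 to 27.0% on chromosomes 1 to 19. No cohesin was called at 92.2% of all X regions, against 60.3 to 70.2% on the other chromosomes, and 53.1% had no mutant region, against 33.1 to 42.6%. The median fold of the 261 was 3.01, against 3.11 to 3.47 on the other chromosomes. Their median percentile by −log10 p was 51.5, against 26.1 to 37.7. Mutant-only regions without cohesin on X numbered 154, or 0.590 times the wild-type-only ones. These differences were not tested, since each line had 1 list.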

How the results depend on the processing

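The 7 results below were recomputed under 15 alternatives, of which the limit on background was chosen after the data were seen. Of 105 values 67 stayed within the counting interval (counts within 1.5 times) and 38 moved. A change of sign was possible only for the difference between wild-type-only and shared regions. The cause of a move was not tested, except where the setting removes weak or near regions by construction. The results were the number of wild-type-only regions without cohesin, the share of wild-type-only regions outside cohesin, its difference from shared regions, and the medians of percentile, fold, distance to the mutant and distance to cohesin of the class. Keeping regions from a −log10 q of 10 upward, in each of the lists, gave 386 regions, 73.7%, a percentile of 86.9, a fold of 5.18, 70956.5 bp and 6802 bp. With that limit in the wild-type list alone these were 78 regions, 58.6%, a difference of −14.2 points, 86.7, 5.62 and 16613.5 bp to the mutant. The difference was negative in all 15 settings, and −3.92 points with no cohesin region within 1 kb, where the share was 47.8%, the fold 3.37 and the distances 17047 and 6691 bp. With no mutant region within 1 kb the fold was 3.38 and the distances 20986 and 4792 bp. An overlap of 50% of the shorter region gave 64.3%, 11933.5 and 3900 bp, and summits inside the other region gave 65.5%, 10514 and 3727 bp. The mutant list at the length of the wild-type list gave 22365 bp to the mutant. For the cohesin lists the share and the distance to cohesin were 62.7% and 5333 bp with the empty vector, 63.0% and 5351 bp with BORIS, 62.3% and 4954.5 bp other than SMC1, and 65.9% and 7784 bp where all 3 antibodies of one line were needed. Without SMC3 the distance was 4827.5 bp. With X and Y the share was 62.1% and the distance to cohesin 4831 bp. The number of regions stayed between 3083 and 4771 apart from the settings with a −log10 q of at least 10. No paired analysis was possible because each line had 1 Snf2h list. Planned shares of motifs, promoters and gene parts were not run, since no genome of the lists' build was used here. The 13 to 125 fragments behind each summit limit what absence from the mutant list shows.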
